A study of Homo sapiens with 6 samples.

Results

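The peaks described here lie on 3 chromosome segments that are known as gained in HCT116, a colorectal carcinoma line of human origin: the distal long arm of chromosome 10 (10q, from 90 Mb to the end), the long arm of chromosome 16 (16q, from 47 Mb) and that of chromosome 17 (17q, from 27 Mb). A peak was a member when its midpoint on GRCh38 fell in 1 of these segments, whatever its score. Of the 36781 peaks on the main chromosomes, 1797 were members, with 585 on 10q, 507 on 16q and 705 on 17q. Peaks with the same ends were often called against both controls of a replicate, and 1587 members were distinct when such pairs were counted once.

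The peaks came from chromatin isolation by RNA purification with sequencing (ChIRP-seq) of the long noncoding RNA CRLM1, annotated as LINC01767, in HCT116 cells. There were 6 libraries in 3 groups of 2 biological replicates: CRLM1 pull-down with biotin-labelled antisense DNA probes, pull-down with probes to bacterial LacZ, and Input chromatin. Each CRLM1 pull-down was called against the Input and against the LacZ library of its own number, which gave 4 peak lists, named here R1-Input, R1-LacZ, R2-Input and R2-LacZ by replicate and control. All libraries were of 1 cell line, the 2 lists made from 1 pull-down are not independent, and peaks in a list are not replicates.

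Chromatin-bound lncRNAs can touch DNA near their own gene or far from it, and ChIRP recovers the DNA fragments crosslinked to them. A pull-down also recovers some DNA unspecifically, so a peak is defined only relative to a control. HCT116 is a near-diploid line with a few gained chromosome arms. A gained arm supplies more DNA to every library made from the cells, the controls included. The lists hold no read counts, so the number of copies of each segment could not be measured here, and their depth is unknown.

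The segments differ from the average autosome in base composition and in gene content. Their ungapped lengths were 43.7 Mb (10q), 43.2 Mb (16q) and 56.2 Mb (17q), 143 Mb in all, against 2613 Mb for the autosomes outside them. GC content was 43.2%, 43.9% and 45.4% in the same order, and 40.8% outside. GENCODE places 7.29, 8.67 and 14.9 protein-coding genes per Mb there, and 6.73 outside. 17q was thus the most GC-rich and the most gene-dense of the 3 segments.

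Among the members, 5 regions were called in both replicates against Input, and sequences of 3 of them are shown first. Capitals mark the longest run of at least 8 bases shared with any CRLM1 probe on either strand, and lines without capitals held none. Sequences are the GRCh38 plus strand, taken from the stretch covered by the peaks of both replicates and trimmed to at most 240 bases around its centre. The other 2 regions lay beside GH1 and in an intron of ATRNL1. The chromosome 16 line covers chr16:64502217-64502345 in an intron of ENSG00000259846. The SORCS1 line covers chr10:107060539-107060598 and the LINC01982 line chr17:52454612-52454851, both in introns.
ENSG00000259846 region: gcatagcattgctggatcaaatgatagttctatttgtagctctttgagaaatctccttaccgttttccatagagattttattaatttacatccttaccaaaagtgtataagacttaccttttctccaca
LINC01982 region: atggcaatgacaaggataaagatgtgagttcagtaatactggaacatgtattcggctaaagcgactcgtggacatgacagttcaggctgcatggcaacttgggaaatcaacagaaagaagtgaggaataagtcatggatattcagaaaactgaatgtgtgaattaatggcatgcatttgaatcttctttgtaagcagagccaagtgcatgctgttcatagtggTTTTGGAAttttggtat
SORCS1 region: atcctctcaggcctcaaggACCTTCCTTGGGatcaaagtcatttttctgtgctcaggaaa

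GH1, which encodes pituitary growth hormone, stood beside the strongest member peak. In replicate 1 the peak chr17:63916517-63917343 scored 803 against Input and 129.86 against LacZ, and in replicate 2 the peak chr17:63916701-63917336 scored 1164.51 against Input. These scores ranked 6, 37 and 3 in their lists. No peak was called at this site in R2-LacZ. The next highest member score in any list was 152.98, so the GH1 peaks against Input stood far above every other member. The peaks reached from downstream of GH1 into its 3′ end, and the other 4 genes of the growth hormone cluster (GH2, CSH1, CSH2 and CSHL1) had no peak in any list.

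The other 4 recurrent regions had scores close to those of ordinary members. The ENSG00000259846 site scored 72.59 in replicate 1 and 64.99 in replicate 2, and lay 441118 bp from CDH11, the nearest protein-coding gene. The ATRNL1 site scored 61.74 and 73.7. The LINC01982 site scored 88 and 58.15 and lay 294247 bp from CA10. The SORCS1 site scored 52.62 and 64.73, and its peaks shared 60 bp. SORCS1 encodes a neuronal sorting receptor, and CDH11 encodes a cadherin of mesenchymal cells. The GH1, ENSG00000259846, ATRNL1 and LINC01982 regions were also called in R1-LacZ, and no member region was called in all 4 lists. At 50% reciprocal overlap, 3 of the 5 regions were left.

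Few members were found again in the other replicate. Against Input this held for 5 of 454 replicate 1 members (1.10%, exact 95% interval 0.359 to 2.55) and for 1.69% of the replicate 1 peaks on autosomes outside the segments (1.43 to 1.99). In replicate 2 it held for 5 of 691 members (0.724%, 0.235 to 1.68) and 0.909% of peaks outside (0.768 to 1.07). Against LacZ, 0 of 630 replicate 1 members overlapped a replicate 2 peak. This allows a share of up to 0.476% by a limit of 3 counts of 630, and up to 0.584% by the exact 95% interval. The share outside was 0.0625%. Members and other peaks had overlapping intervals in each of these comparisons. All intervals on shares of peaks cover counting error only.

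Peak density did not rise on the 3 segments in a way that all lists shared. R1-Input held 454 members, 163 on 10q, 112 on 16q and 179 on 17q. R1-LacZ held 630 members, 173, 182 and 275 in the same order. R2-Input held 691 members, 242, 210 and 239. R2-LacZ held only 22 members, 7, 3 and 12. Relative to the autosomes outside, the 3 segments together were denser in R1-LacZ, sparser in R2-Input, and not different by the test in the other lists.

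**Figure D1:**
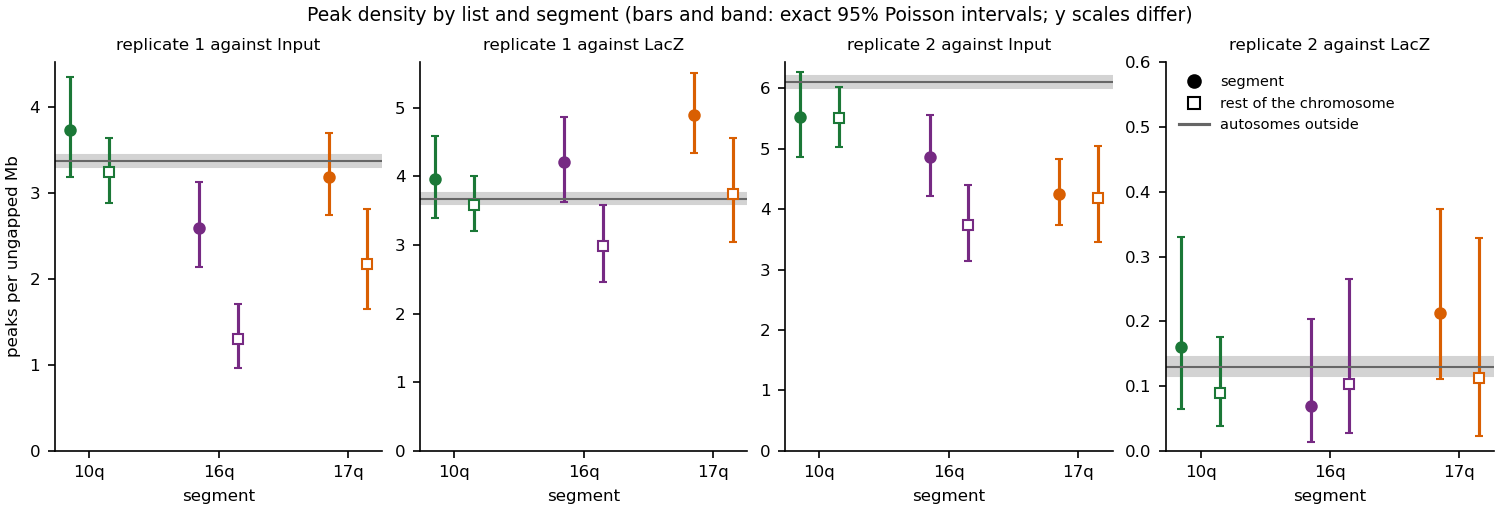
Peaks per ungapped Mb (y axis, scale differs by panel) on each segment (filled circles) and on the rest of its chromosome (open squares), 1 panel per peak list, with exact 95% Poisson intervals. The grey line and band give the autosomes outside the 3 segments. 17q lies above the band in R1-LacZ (4.89 peaks per Mb) and below it in R2-Input (4.25).

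Density was compared as a ratio of peaks per ungapped Mb by an exact two-sided binomial test on the peak counts, with Benjamini-Hochberg adjustment over 32 tests. 17q held 4.89 peaks per Mb in R1-LacZ, where autosomes outside held 3.68 (ratio 1.33, 95% interval 1.18 to 1.50, exact adjusted p = 7.5e-05). In R2-Input it held 4.25 against 6.10 (ratio 0.697, 0.611 to 0.792, exact adjusted p = 8.3e-08). In R1-Input it held 3.19 against 3.37 (ratio 0.946, 0.811 to 1.10, exact adjusted p = 0.57). The direction on 17q therefore differed between lists.

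16q was sparser than autosomes outside in both lists against Input. The ratio was 0.770 in replicate 1 (0.633 to 0.927, exact adjusted p = 0.016) and 0.796 in replicate 2 (0.691 to 0.912, exact adjusted p = 0.0036). Against LacZ in replicate 1 it was 1.15 (0.984 to 1.33, exact adjusted p = 0.16). On 10q no list passed the test, with ratios of 1.11, 1.08 and 0.907 in R1-Input, R1-LacZ and R2-Input (exact adjusted p of 0.33, 0.47 and 0.28). In R2-LacZ the ratios were 1.23, 0.535 and 1.65 on 10q, 16q and 17q, with intervals that all held 1.

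Against the rest of the same chromosome the picture was higher for 16q. R1-Input gave 2.59 peaks per Mb on 16q and 1.30 on the rest of chromosome 16 (ratio 2.00, 1.42 to 2.85, exact adjusted p = 0.00017). R1-LacZ gave a ratio of 1.41 (1.11 to 1.80, exact adjusted p = 0.013) and R2-Input 1.30 (1.05 to 1.62, exact adjusted p = 0.044). 17q was denser than the rest of chromosome 17 in R1-Input (ratio 1.47, 1.09 to 2.01, exact adjusted p = 0.029) and had a ratio of 1.01 in replicate 2 (0.807 to 1.28, exact adjusted p = 0.98). In R1-LacZ it was 1.31 (1.04 to 1.66, exact adjusted p = 0.05), which did not pass. 10q had ratios between 1.00 and 1.15 in the 3 large lists, none past the test. The rest of chromosome 16 held fewer peaks per Mb than the autosomes outside, which held 3.37 in R1-Input.

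For the 3 segments together, the ratio to autosomes outside was 0.942 in R1-Input (0.855 to 1.04, exact adjusted p = 0.36), 1.20 in R1-LacZ (1.10 to 1.30, exact adjusted p = 0.00015) and 0.791 in R2-Input (0.732 to 0.854, exact adjusted p = 1.4e-08). In R2-LacZ it was 1.18 (0.733 to 1.82, exact adjusted p = 0.51). Against the rest of chromosomes 10, 16 and 17, the 3 segments were denser in R1-Input (ratio 1.23, 1.08 to 1.41, exact adjusted p = 0.0091) and in R1-LacZ (1.27, 1.13 to 1.43, exact adjusted p = 0.00024), and the ratio was 0.998 in R2-Input (exact adjusted p = 0.98) and 1.59 in R2-LacZ (exact adjusted p = 0.33). In the exact test, the direction of the ratio in R1-Input thus turned with the comparator. The exact test covers counting error only and takes peaks as independent, whereas counts per 1 Mb bin varied 2.65 times as much as a Poisson count in R1-Input, and 1.50, 2.58 and 1.05 times in R1-LacZ, R2-Input and R2-LacZ. A quasi-Poisson regression with that spread and no covariate ended all calls for 16q, against autosomes outside and against the rest of chromosome 16. With GC content added, 16q passed again against the rest of its chromosome in R1-LacZ (ratio 1.44). The regression with no covariate also ended the call for 17q against the rest of chromosome 17 in R1-Input. It kept the calls for 17q against autosomes outside in R1-LacZ and R2-Input. Once GC content was a covariate, the call in R1-LacZ was kept (ratio 1.25), and 17q in R2-Input did not pass (ratio 0.905).

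The share of peaks on 16q and 17q differed between the controls of replicate 1. Of peaks called only against Input, 1.06% lay on 16q and 2.47% on 17q, and of those called only against LacZ 2.13% and 3.75% (Fisher's exact test, two-sided, adjusted p = 8.7e-05 and 0.00059 over 8 tests). On 10q the shares were 2.19% and 1.98% (exact adjusted p = 0.65). These tests take peaks as independent. In the full R1-Input and R1-LacZ lists, counts per 1 Mb bin varied 2.65 and 1.50 times as much as a Poisson count. Without peaks under the median score, the difference on 17q did not pass (odds ratio 0.787, exact adjusted p = 0.36). The peaks called against both controls of replicate 1, 190 of the members, gave yet another value: 17q was then sparser than autosomes outside (ratio 0.679, exact adjusted p = 0.0068), and so were the 3 segments together (ratio 0.779, exact adjusted p = 0.0046). In replicate 2 only 19 autosomal peaks were called against LacZ alone, 2 of them on 17q.

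The share of peaks on 17q was higher in the replicate 1 list against Input than in that of replicate 2. Against Input, 1.93% of replicate 1 and 1.44% of replicate 2 autosomal peaks lay there (Fisher's exact test, two-sided, adjusted p = 0.02 over 8 tests), and 4.91% and 4.15% lay on the 3 segments together (exact adjusted p = 0.02). The shares on 10q (1.76% and 1.45%) and 16q (1.21% and 1.26%) did not pass the test (exact adjusted p = 0.16 and 0.88). These tests compare single lists and take peaks as independent, although counts per bin varied more than a Poisson count in both lists against Input (2.65 and 2.58 times).

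Against Input, part of the members on 10q and 17q were gathered in narrow stretches. Each segment was divided into 5 Mb bins from its start, which gave 9 bins on 10q, 9 on 16q and 11 on 17q among 553 autosomal bins. The densest bin of 10q was 105 to 110 Mb, with 50 peaks in R1-Input and 75 in R2-Input. The densest bin of 17q was 52 to 57 Mb, with 61 and 56. Against Input these bins ranked 13 and 10 (10q) and 3 and 15 (17q) of the 553 by density. Against Input, both replicates thus had the same densest bin on 10q and on 17q. In R1-LacZ other bins were fuller, 95 to 100 and 100 to 105 Mb on 10q (26 peaks each, 22 at 105 to 110 Mb) and 77 to 82 Mb on 17q (37 peaks, 32 at 52 to 57 Mb). On 16q the densest bin was 77 to 82 Mb in R1-Input (22 peaks), 82 to 87 Mb in R1-LacZ (30 peaks) and 57 to 62 Mb in R2-Input (38 peaks). By the test given below, no 16q bin was called denser than the other autosomal bins in any list, nor was any 10q bin in R1-LacZ.

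**Figure D2:**
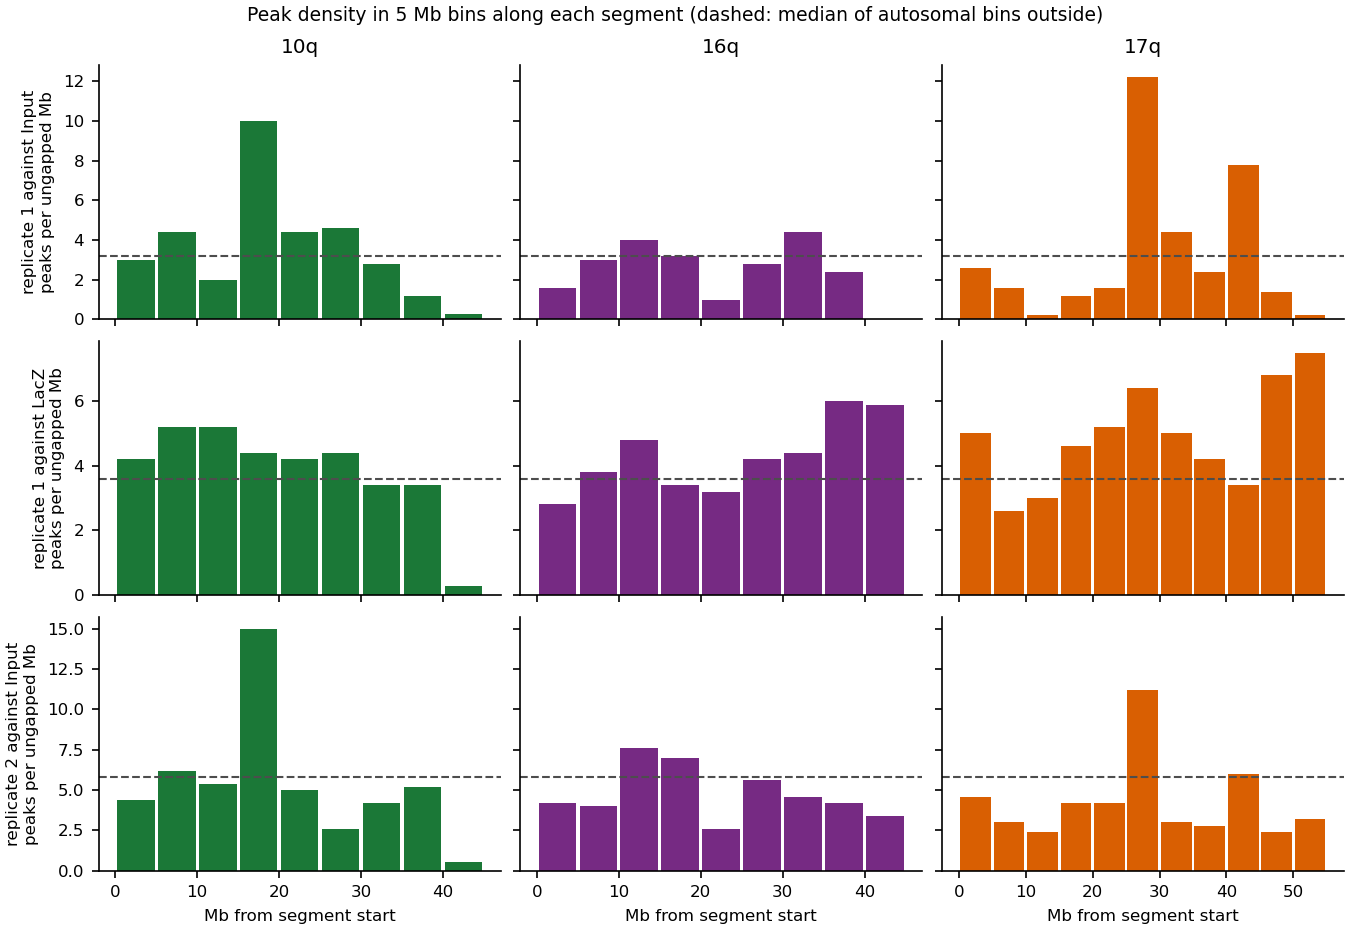
Peaks per ungapped Mb (y axis) in 5 Mb bins along each segment (x axis, Mb from the segment start), in rows for the 3 large lists and columns for 10q, 16q and 17q. Dashed lines give the median of the autosomal bins outside. Against Input, 1 bin of 10q (10 and 15 peaks per Mb in replicates 1 and 2) and 1 of 17q (12.2 and 11.2) stand above their neighbours, and against LacZ the distal bins of 17q are high instead.

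The 10q bin at 105 to 110 Mb had a GC content of 38.3% and 3 protein-coding genes: SORCS1, XPNPEP1, an aminopeptidase, and ADD3, an adducin of the membrane skeleton. Its peaks numbered 22 in R1-LacZ and 2 in R2-LacZ, and 13 of the 50 replicate 1 peaks against Input were also called against LacZ. The 17q bin at 52 to 57 Mb had a GC content of 38.4% and 17 protein-coding genes, among them KIF2B, a kinesin of the mitotic spindle, CA10, a carbonic anhydrase-related protein of the brain, and NOG, an inhibitor of bone morphogenetic proteins. It held 32 and 2 peaks against LacZ in replicates 1 and 2, and 23 of its 61 replicate 1 peaks against Input were also called against LacZ. A second 17q bin, 67 to 72 Mb, held 39 peaks in R1-Input and 30 in replicate 2 (GC content 40.0%, 22 protein-coding genes). It was called denser in replicate 1 but not in replicate 2.

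The sparsest bins against Input in replicate 1 were the last bin of each segment and 1 bin of 17q. The last bin of 16q, 87 to 90.3 Mb, held 0 peaks there, 19 in R1-LacZ and 11 in R2-Input. The last bin of 17q, 77 to 82 Mb, held 1, 37 and 16 peaks in the same lists, and 17q at 37 to 42 Mb held 1, 15 and 12. The last bin of 10q, 130 to 133.8 Mb, was sparse in all of them, with 1, 1 and 2 peaks. These 4 bins had a GC content of 53.5%, 52.7%, 46.5% and 50.8%. In the distal bins of 16q and 17q, R1-LacZ was therefore the fullest of the 4 lists, although it used the same pull-down as R1-Input.

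Against Input, more bins of the segments were called sparse than dense. In R1-Input, 3 of 29 member bins were denser than the other autosomal bins, where 8.68% of all bins were, and 7 were sparser, where 12.8% were (exact binomial test, adjusted p under 0.05 over the bins of a list). In R2-Input, 2 of 29 were denser beside 7.05% of all, and 9 were sparser beside 11.2%, with 6 of the 9 on 17q. In R1-LacZ, 2 of 29 were denser beside 3.25%, both on 17q (72 to 77 and 77 to 82 Mb), and 1 was sparser beside 4.52%. In R2-LacZ, 0 of 29 were called either way and 0% of all bins were, with so few peaks that the test had no reach. The median density of the member bins was 2.6 peaks per Mb in R1-Input (all bins 3.2), 4.4 against LacZ (3.6) and 4.2 in R2-Input (5.8).

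**Figure D3:**
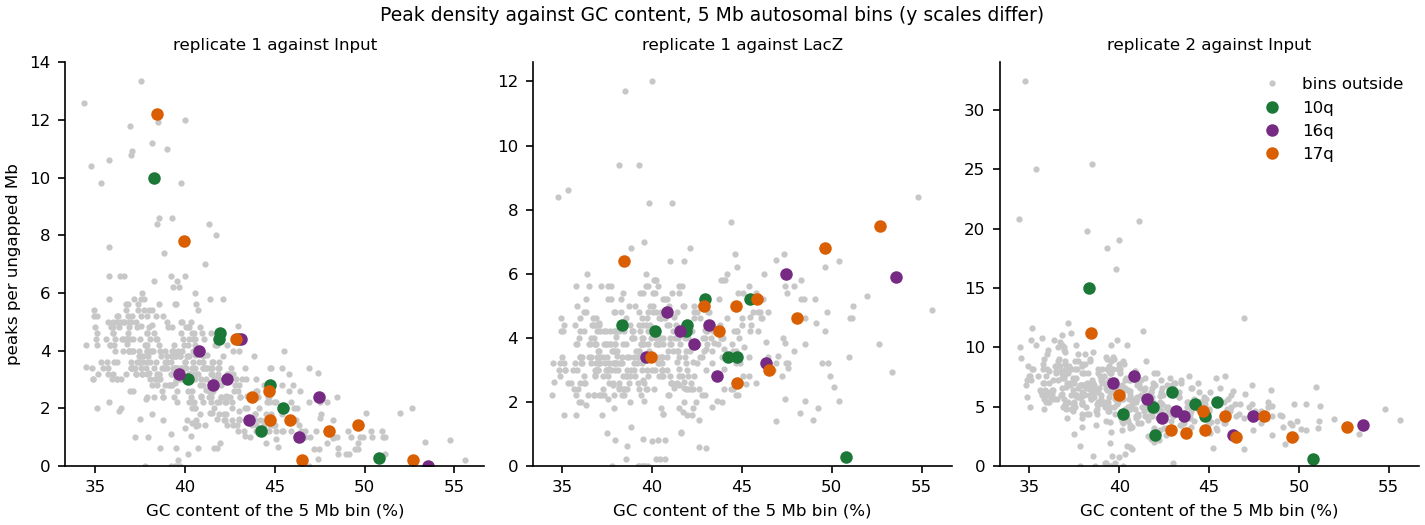
Peaks per ungapped Mb (y axis, scale differs by panel) against the GC content of each 5 Mb autosomal bin (x axis), for the 3 large lists. Grey points are bins outside the segments and coloured points the 29 bins of 10q, 16q and 17q. Density falls with GC content in the lists against Input, and the bins of 10q and 17q near 38% GC stand at the upper edge of the cloud.

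Density against Input ran opposite to GC content along the segments. Over the 29 member bins, Spearman's rank correlation between density and GC content was -0.88 in replicate 1 and -0.69 in replicate 2, and 0.15 in R1-LacZ. Over all 553 autosomal bins the values were -0.64, -0.53 and 0.15. Density in R1-Input and R2-Input had a rank correlation of 0.61 over the member bins and 0.63 over all bins. These are descriptions over bins that share libraries and neighbours. The 2 dense bins were chosen for their density, so their rank among bins of like base composition is a description only. Of 114 bins outside with a GC content within 1 percentage point of the 17q bin at 52 to 57 Mb, 1 was as dense or denser in R1-Input and 3 in replicate 2. For the 10q bin at 105 to 110 Mb, 4 and 3 of 111 such bins were.

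**Figure D4:**
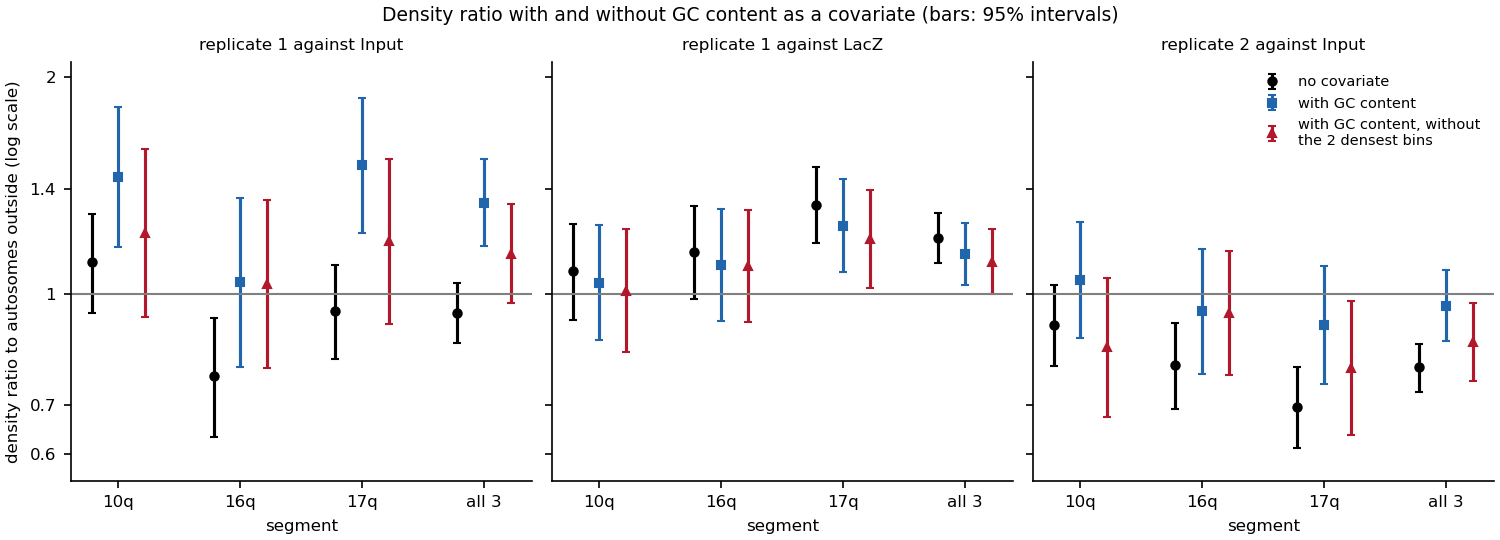
Ratio of peak density to that of autosomes outside the segments (y axis, log scale) by segment, for the 3 large lists, with 95% intervals. Black circles are the exact test, blue squares a quasi-Poisson regression with GC content, and red triangles the same regression without the densest 5 Mb bin of 10q and of 17q. In R1-Input the ratio for 17q moves from 0.946 to 1.51 and then to 1.18.

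With GC content as a covariate, the ratios to autosomes outside moved upwards in both lists against Input. The regression took 1 Mb bins as independent, so its intervals do not cover likeness between neighbouring bins. Against the rest of chromosome 16 the quasi-Poisson ratio of 16q moved down, from 2.00 to 1.65 in R1-Input and from 1.31 to 1.19 in R2-Input. Against autosomes outside, the quasi-Poisson ratio in R1-Input was 1.45 on 10q (95% interval 1.16 to 1.82), 1.51 on 17q (1.22 to 1.87) and 1.34 for the 3 segments together, and all of them passed the test after adjustment. In R2-Input it was 1.05 on 10q, 0.905 on 17q and 0.964 together, and none passed. In R1-LacZ 17q was denser too, with a ratio of 1.25 that passed. When the densest bin of 10q and of 17q was left out as well, which was chosen after seeing the data, the replicate 1 ratios against Input were 1.22 on 10q, 1.18 on 17q and 1.14 together, and none passed. 17q in R1-LacZ then had a ratio of 1.19, which did not pass. Without a covariate, leaving out the same bins gave 0.685 on 17q in R1-Input (exact adjusted p = 0.00011) and 0.706 on 10q in replicate 2 (exact adjusted p = 2.4e-05). In R1-LacZ, where other bins of 10q and 17q were denser, the same step gave 1.29 on 17q, which passed (exact adjusted p = 0.0007). In both lists against Input, the calls on 10q and 17q thus depended on these bins or on the covariate.

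The member peaks were alike in score on the 3 segments. Median scores were 58.68, 55.86 and 57.84 on 10q, 16q and 17q in R1-Input, 57.93, 59.35 and 58.17 in R1-LacZ, and 57.8, 58.7 and 58.13 in R2-Input. Scores of 100 or more were reached by 10, 17 and 10 members in these lists and by 0 of 22 in R2-LacZ. Median width of the members was 429.5, 425.5 and 420 bp, and 611 bp in R2-LacZ. Median GC content of the member peaks was 38.8%, 44.7% and 41.4% in the 3 large lists, where peaks outside had 37.9%, 41.1% and 38.7%. Peaks called against LacZ in replicate 1 thus lay on more GC-rich DNA than those called against Input.

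**Figure D5:**
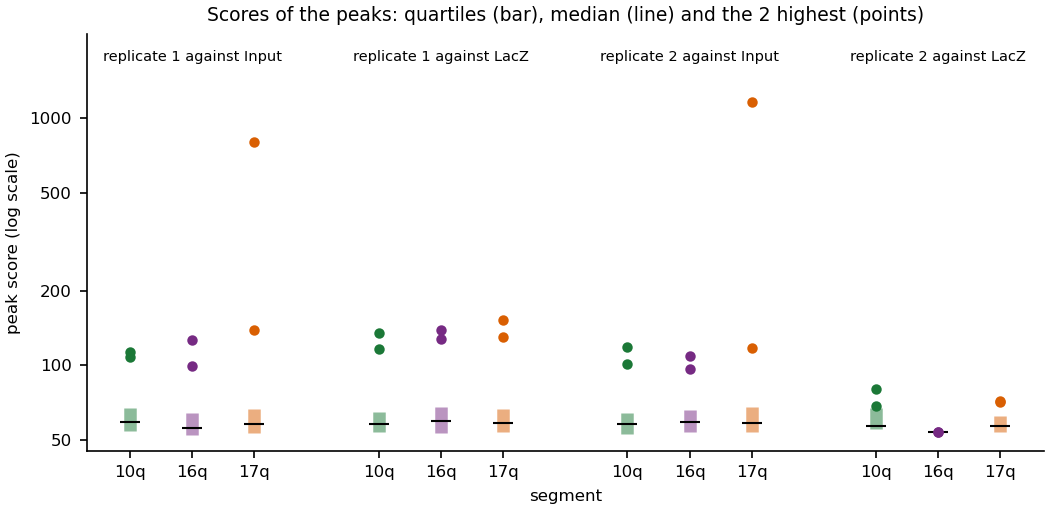
Peak scores (y axis, log scale, the authors' values of unstated scale) of the members by list and segment, with the quartiles as a bar, the median as a line and the 2 highest scores as points. The 2 points of 803 and 1164.51 on 17q against Input are the peak beside GH1, and the medians lie between 53.52 and 59.35.

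Apart from GH1, the strongest members of each segment and list were as follows. On 10q they were a peak in an exon of AFAP1L2, an actin-binding adaptor (113.01), and 1 in an intron of HTR7, a serotonin receptor (108.28), in R1-Input. In R1-LacZ they were a peak overlapping ATE1OSP, 12522 bp from NSMCE4A (134.93), and 1 in an intron of CPEB3, an mRNA-binding protein (115.89). In R2-Input both lay in the dense bin of 10q, far from coding genes, with SORCS3 at 571357 bp (118.37) and XPNPEP1 at 695648 bp (100.81). In R2-LacZ they were a peak near SLF2 (79.91) and 1 in an intron of CTBP2, a transcriptional corepressor (68.4).

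On 16q the strongest peak of replicate 1 lay 602057 bp from CDH8 and scored 126.2 against Input and 138.44 against LacZ. The second against Input lay in an intron of DYNLRB2-AS1 (99.21), and the second against LacZ overlapped LINC02137, 2007 bp from NDRG4 (127.52). In R2-Input they lay 1539 bp from CFAP20 (109.04) and in an intron of CRISPLD2 (96.76). In R2-LacZ they lay 8796 bp from CBFB (53.87) and in an intron of CDH13 (53.52).

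On 17q, apart from GH1, the strongest peaks were 1 in the dense bin, in an intron of ENSG00000285939 and 527272 bp from KIF2B (139.25, R1-Input), and 1 over exonic sequence of ARHGDIA (152.98, R1-LacZ). In replicate 2 a peak overlapping PLXDC1 scored 117.05 against Input. Against LacZ a peak in an intron of AP2B1, a clathrin adaptor subunit, scored 71.37, and another in ENSG00000285939, 134288 bp from KIF2B, scored 70.83. None of these 17q peaks was found in the other replicate.

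Among the segments in R1-LacZ, the 17q peaks had the highest share in UTR or coding sequence. The midpoint lay in UTR or coding sequence for 8.36% of them (exact 95% interval 5.38 to 12.3), for 2.89% on 10q and 2.20% on 16q, and for 4.14% of that list outside the segments (3.75 to 4.56). The upstream class took the start of any annotated transcript, also one inside a gene, and came before introns. Within 5 kb upstream of such a start lay 24.0% of the 17q peaks (19.1 to 29.5), where outside 14.9% did (14.2 to 15.6). On 16q this share was much the same, 24.2% (18.1 to 31.1), and on 10q it was 15.6% (10.5 to 21.9). Against Input in replicate 1, 2.23% of 17q peaks were in UTR or coding sequence and 55.9% in introns. 17q is the most gene-dense of the segments, and the shares were not adjusted for that.

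Of the 1534 protein-coding genes of the segments, 8.87% had a peak in the body or 5 kb upstream in R1-Input, 20.1% in R1-LacZ, 15.2% in R2-Input and 0.652% in R2-LacZ. Of the 60 genes of 5 fixed lists, 13, 20, 24 and 1 had one. The list genes were longer, with a median of 61.9 kb against 21.9 kb for all genes of the segments. The counts were not adjusted for length, and its part in them was not tested. No conclusion about the lists was drawn from the counts. In the lists against Input, the genes with the most peaks were long, from 529.7 kb (CA10) to 1174 kb (CDH13). In R1-Input they were ATRNL1 with 8 peaks and HPSE2, ANKFN1 and BCAS3 with 7 each. In R2-Input they were HPSE2, SORCS1 and CDH13 with 9 each and CA10 with 8. In R1-LacZ no gene had more than 5 peaks, and shorter genes of 252.2 kb on 10q and 222.9 kb on 16q had 4 each.

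Of the 17 genes of the fixed adhesion and matrix list, 5 had a peak in R1-Input, 7 in R1-LacZ, 9 in R2-Input and 1 in R2-LacZ. Of all protein-coding genes of the segments, 8.87%, 20.1%, 15.2% and 0.652% had one. The median length was 91.3 kb in the list and 21.9 kb over all of them. CDH13, an atypical cadherin anchored in the membrane by a lipid, was the only fixed-list gene with a peak in all 4 lists, with 5, 2, 9 and 1 peaks over its 1174 kb. CDH11 had 1, 1 and 2 peaks and CDH8 1, 1 and 4 in the 3 large lists. VTI1A, which the list also holds although it is a vesicle fusion protein, had 3, 1 and 2. CDH5, the cadherin of endothelial junctions, had 1 peak in each replicate 1 list. ADAM12, a metalloprotease, had 1 peak in R1-LacZ and 1 in R2-Input. CDH1, the epithelial cadherin, had none in any list.

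Genome maintenance and cell division genes had a peak in 5, 6, 4 and 0 of 13 cases in R1-Input, R1-LacZ, R2-Input and R2-LacZ. The shares over all protein-coding genes of the segments were 8.87%, 20.1%, 15.2% and 0.652%. The list genes had a median length of 53.0 kb, against 21.9 kb over all. WWOX, a tumour suppressor in a common fragile site, had 3, 5 and 2 peaks in the 3 large lists, and RAD51C, of homologous recombination, had 1 in each. BRCA1 had 1 in each replicate 1 list. MGMT, which repairs alkylated guanine, had 1 in R1-LacZ and 1 in R2-Input.

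Growth factor and kinase signalling genes had a peak in 2, 4, 7 and 0 of 17 cases in the same order of lists. All protein-coding genes of the segments had shares of 8.87%, 20.1%, 15.2% and 0.652%. Their median length was 21.9 kb, and that of the signalling list 73.9 kb. MAP2K6, an activator of p38 kinases, and PRKCA, a protein kinase C, had 1 peak in each replicate 1 list. BCAR1, an adhesion scaffold, had 2 peaks in R1-LacZ and 1 in R2-Input. Genes of the fixed Wnt pathway list, with a median length of 67.3 kb, had a peak in 0, 2, 3 and 0 of 8 cases, beside the same shares over all genes. SUFU, an inhibitor of Hedgehog signalling that the list also holds, had 2 peaks in R1-LacZ and 1 in R2-Input. ERBB2 had no peak in any list.

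Sequence shared with the printed probe letters was short among the members. The probe table gives each probe a length above the number of letters it prints, so a run that reaches letters not printed would be missed or shortened. The longest exact run with any CRLM1 probe had a median of 9 bases in the members of every list and in the peaks outside. A run of 14 or more was held by 1 of 454 members in R1-Input (0.220%, outside 0.205%), by 1 of 630 in R1-LacZ (0.159%, outside 0.156%) and by 0 of 691 in R2-Input, which by the same limit of 3 counts allows a share of up to 0.434% (outside 0.207%). Both came from the peak chr17:27773096-27773311, whose run of 15 bases is the reverse complement of part of probe CRLM1-5 and is shown in capitals in the plus strand of chr17:27773138-27773167.
Probe run on 17q: tagccacTGCCACTGCCACTCActtgacca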

How the data were processed

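The authors trimmed reads with cutadapt, aligned them to GRCh38 with Bowtie2 and called peaks with MACS in each replicate against the control of the same number, without pooling. The deposited lists give start, end and a score of unstated scale for each peak. The methods name MACS2 (version 2.2.5) with a q-value cutoff of 0.01 for calls against Input, and peaks in the deposited lists are named as by an older MACS, so which version made them was not settled. The lists hold no counts, so depth is unknown and intervals cover counting error only. No per-sample column was left unmapped.

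Members, gene lists and comparisons were chosen with earlier results of these data known. Members were taken by midpoint. Ungapped length is the bases of GRCh38 that are not N. Coordinates are 1-based, and genes came from GENCODE 44. A midpoint was classed as UTR or coding sequence, other exon, 5 kb upstream of any annotated transcript start, intron or intergenic, in that order. Upstream peaks can therefore lie inside a gene. Density ratios used an exact two-sided binomial test with 95% Clopper-Pearson intervals (SciPy 1.17.1), adjusted over 32 tests, and over 4 for summed replicates. Fisher's exact test compared shares, adjusted over 8 tests. Quasi-Poisson regression ran over 1 Mb bins (statsmodels 0.14.6), adjusted over 32. Bins of 5 Mb under 2.5 ungapped Mb were left out. The code was tested on simulated peaks.

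The text names the 2 strongest peaks per segment and list, regions called in both replicates or in at least 3 lists, the densest and sparsest bins, fixed-list genes with a peak in at least 2 lists and the growth hormone cluster. HPSE2, BCAS3, ANKFN1, the 10q bins at 95 to 100 and 100 to 105 Mb, the 17q bins at 67 to 72, 72 to 77 and 77 to 82 Mb, CDH1, ERBB2, NOG, XPNPEP1 and ADD3 were named after their values were seen. Probe sequences came from the study. A few items that this naming rule would include are not reported here. Alternatives covered the score threshold, both controls, merging, segment start, regression, bin size, overlap, upstream window and left-out replicates.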

Additional observations from a re-analysis of the deposited data

Results flagged for a closer look

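The share of autosomal peaks on the segments was higher in the replicate 1 list against Input than in that of replicate 2. On 17q the odds ratio of replicate 1 over replicate 2 was 1.35 (1.93% and 1.44%, Fisher's exact test, adjusted p = 0.02), and on the 3 segments together it was 1.19 (4.91% and 4.15%, exact adjusted p = 0.02). The test compares 1 list with 1 list and takes peaks as independent, and counts per 1 Mb bin varied 2.65 and 2.58 times as much as a Poisson count in these lists.

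The share also differed between the controls of replicate 1. The odds ratio of peaks called only against Input over peaks called only against LacZ was 0.494 on 16q (Fisher's exact test, adjusted p = 8.7e-05), 0.650 on 17q (exact adjusted p = 0.00059) and 0.711 on the 3 segments together (exact adjusted p = 8.7e-05). Without peaks under the median score, the last 2 did not pass (0.787 and 0.797, exact adjusted p = 0.36 and 0.25). The test takes peaks as independent, although counts per 1 Mb bin varied more than a Poisson count in R1-Input and R1-LacZ (2.65 and 1.50 times). GC content moved with this difference: the median GC content of the members was 38.8% against Input and 44.7% against LacZ. Its part in the result was not tested.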

How the results depend on the processing

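Of 477 values recomputed under 18 alternatives, 327 kept their direction and side of the threshold (for counts, stayed within 1.5 times), 54 changed direction, 59 fell below the threshold, 23 rose above it and 14 counts moved. The cause was not tested. The numbers below are density ratios, and those that leave out bins or chromosomes, drop empty bins or use the square of GC content were chosen after seeing the data. With only peaks called against both controls, the ratio to autosomes outside was 0.832 on 10q, 0.856 on 16q, 0.679 on 17q and 0.779 on all 3 in both lists of replicate 1, 1.30, 0.563, 1.44 and 1.13 in R2-Input, and 0.803 on all 3 for the summed lists against LacZ. To the rest of the chromosome it was then 0.900 on 10q and 1.06 on all 3 in both lists of replicate 1, 1.03 on 17q in R1-Input, 0.669 on 16q and 1.44 on all 3 in R2-Input, and 1.09 for the summed lists against LacZ. When peaks under the median score were left out, the ratio to autosomes outside was 1.39 on 10q, 0.751 on 16q, 1.10 on 17q and 1.08 on all 3 in R1-Input, 1.29 on 16q in R1-LacZ, and 0.851 on 16q in R2-Input. To the rest of the chromosome it was 1.38 on 10q and 1.58 on 17q in R1-Input, 1.42 on 16q in R1-LacZ, 1.36 on 16q and 1.09 on all 3 in R2-Input, and 1.20 for the summed lists against Input. With peaks within 10 kb counted as 1, it was 1.39 on 17q in R1-LacZ, 0.998 on 10q and 1.02 on all 3 in R2-Input, and 1.13 for the summed lists against Input. With quasi-Poisson regression, the ratio to autosomes outside was 0.773 and 0.800 on 16q in R1-Input and R2-Input. To the rest of the chromosome it was 2.00 on 16q, 1.47 on 17q and 1.24 on all 3 in R1-Input, 1.41 on 16q in R1-LacZ, and 1.31 on 16q and 1.00 on all 3 in R2-Input. With GC content, GC content and genes per Mb, and GC content and its square, the ratio to autosomes outside was 1.45, 1.47 and 1.41 on 10q, 1.04, 1.07 and 1.05 on 16q, 1.51, 1.50 and 1.57 on 17q and 1.34, 1.35 and 1.35 on all 3 in R1-Input, and 1.05, 1.05 and 1.07, then 0.946, 0.946 and 0.941, then 0.905, 0.905 and 0.895, then 0.964, 0.964 and 0.964 in R2-Input. To the rest of the chromosome it was 1.46, 1.46 and 1.46 on 10q, 1.65, 1.63 and 1.65 on 16q and 1.45, 1.39 and 1.48 on 17q in R1-Input, and 1.19, 1.19 and 1.19 on 16q and 1.09, 1.09 and 1.08 on all 3 in replicate 2. With GC content and without the densest bins of 10q and 17q, the ratio to autosomes outside was 1.03 on 16q, 1.18 on 17q and 1.14 on all 3 in R1-Input, 1.19 on 17q and 1.11 on all 3 in R1-LacZ, 0.942 on 16q, 0.789 on 17q and 0.858 on all 3 in R2-Input, and 0.949 on 10q and 0.981 on all 3 in R2-LacZ. To the rest of the chromosome it was 1.66 on 16q, 1.14 on 17q and 1.23 on all 3, then 1.45 on 16q and 1.21 on all 3, then 0.923 on 10q, 1.19 on 16q and 0.893 on 17q in the same 3 lists. Without those bins and with no covariate, the ratio to autosomes outside was 0.867 on 10q, 0.685 on 17q and 0.765 on all 3 in R1-Input, and 0.706 and 0.995 on 10q in R2-Input and LacZ. To the rest of the chromosome it was 0.901 on 10q, 1.06 on 17q and 1.00 on all 3 in R1-Input, 0.783 on 10q, 0.853 on 17q and 0.869 on all 3 in R2-Input, and 0.915 for the summed lists against Input. With segments starting 5 Mb further along, 16q had 0.808 to autosomes outside in R1-Input, and all 3 had 1.01 to the rest in R2-Input and 1.10 for the summed lists against Input. Without empty 1 Mb bins, the ratio to the rest was 1.41 on 17q in R1-Input, 1.24 on 16q in R1-LacZ, and 1.14 on 16q and 0.978 on 17q in R2-Input. Without chromosomes 5 and 8, the ratio to autosomes outside in R1-Input was 1.21 on 10q, 0.843 on 16q, 1.04 on 17q and 1.03 on all 3. For the summed lists on all 3 segments, leaving out 1 replicate gave 0.791 to 0.942 (all lists against Input to autosomes outside, both replicates 0.845), 0.998 to 1.23 (to the rest, both 1.08), 1.18 to 1.20 (against LacZ to autosomes outside, both 1.20) and 1.27 to 1.59 (to the rest, both 1.28). Shares changed as follows. Without peaks under the median score, the odds ratio of peaks called only against Input over only against LacZ in replicate 1 was 0.787 on 17q (exact adjusted p = 0.36) and 0.797 on all 3 (exact adjusted p = 0.25), and that of replicate 1 over 2 was 1.51 on 10q against Input and 0.973 on all 3 against LacZ. With segments starting 5 Mb further along, it was 0.958 on all 3 against LacZ, and 0.110 on 17q for the controls of replicate 2. Member bins called dense numbered 1 in R2-Input with 10 Mb bins, and 1 in R1-LacZ at an adjusted p under 0.01. Those called sparse numbered 3 in R1-Input and 0 in R1-LacZ with 10 Mb bins, 4 and 5 in R1-Input and R2-Input at an adjusted p under 0.01, and 2, 0 and 3 in the 3 large lists without peaks under the median score. Regions called in both replicates against Input numbered 3 at 50% reciprocal overlap. Genes with a peak numbered 88, 185, 143 and 5 in the 4 lists without them. For 2 odds ratios of replicate 2, and 3 alternatives, an arm held 0 peaks and no ratio was computed. Both alternatives on soft-masked sequence were not run, since the genome used carries no masking. No paired analysis was possible because each list is already a call of 1 pull-down against the control of its own number and holds no values per library. Depth is unknown, so the small number of peaks in R2-LacZ limits every test there.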
